A study of Homo sapiens with 3 samples.

Results

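The small nucleolar RNAs (snoRNAs), small Cajal body RNAs and Y RNAs on these arrays were taken as every probe whose platform gene symbol begins with SNORA, SNORD or SCARNA, or is RNY1, RNY3, RNY4 or RNY5. The rule gave 308 probes for 305 genes, out of 47309 probes and 20044 named genes. Of these, 178 probes (176 genes) were box C/D snoRNAs, 102 probes (101 genes) were box H/ACA snoRNAs, 24 were Cajal body RNAs and 4 were Y RNAs. The symbols chose the probes, and no measured value did.

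The arrays were Illumina HumanHT-12 V4 BeadChips of H2030-BrM3, a human lung adenocarcinoma line obtained from H2030 cells by selection for growth as brain metastases. All cells were grown for 1 day in RPMI medium with 10% fetal bovine serum. The control array held cells with a non-targeting short hairpin RNA (n = 1), and the others held cells with PARP1 targeting shRNA-1 (hairpin 1) or shRNA-2 (hairpin 2), 1 array each, so every group here carries a hairpin. PARP1 is an enzyme that binds broken DNA and attaches poly(ADP-ribose) to proteins, and the series title asks for its target genes. The labels do not say whether a line is 1 clone or whether the arrays came from separate cultures, so a p-value measures only the spread between these arrays.

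Box C/D snoRNAs pair with ribosomal RNA and guide methylation of its riboses, and box H/ACA snoRNAs guide the conversion of uridine to pseudouridine. Each class works inside a particle with its own set of core proteins. Cajal body RNAs carry the same boxes and guide modification of the spliceosomal RNAs, while Y RNAs bind the Ro60 and La proteins and take part in the start of DNA replication. Most human snoRNAs are cut out of introns of host genes, many of which encode ribosomal proteins or are long noncoding RNAs named SNHG. A few box H/ACA snoRNAs (SNORA37, SNORA73A, SNORA73B and SNORA74A) are known to bind PARP1 in breast cancer cells, where the helicase DDX21 is involved.

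Some of these genes also hold a microRNA, a short RNA that pairs with messengers through its seed, bases 2 to 8. Hairpins of RefSeq microRNAs lay over 7 members, with 10 mature sequences, of which 9 lay wholly inside the member, and the 10 seeds were all different. The mature sequences in the 3 of these members that were above background on at least 1 array are printed from RefSeq (GRCh38.p14), 5′ to 3′ with the seed in capitals, because they show which piece of the snoRNA is shared.
hsa-miR-6516-5p in SCARNA16 (chr17:77089428-77089449, + strand): uUUGCAGUaacaggugugagca
hsa-miR-6516-3p in SCARNA16 (chr17:77089469-77089490, + strand): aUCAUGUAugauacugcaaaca
hsa-miR-1291 in SNORA2C (chr12:48654494-48654517, - strand): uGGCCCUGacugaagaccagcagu
hsa-miR-3651 in SNORA84 (chr9:92292461-92292484, - strand): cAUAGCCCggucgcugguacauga
No microRNA gene of these 7 had a probe of its own, so the values below are those of the snoRNA and Cajal body probes. SCARNA16, with 2 mature microRNAs inside it, was above background on all 3 arrays with signals of 210.1, 214 and 224. Signals and counts are given in the order control, hairpin 1, hairpin 2, and ratios in the order hairpin 1, hairpin 2. SNORA2C and SNORA84 were above background in the control and with hairpin 2. The SNORA2C signal was 196, 175 and 194 on the 3 arrays, and that of SNORA84 was 182, 169 and 184. The hairpin 1 array gave the lowest signal for both. After normalization the log2 ratio with hairpin 2 was -0.37 for SNORA2C and -0.29 for SNORA84.

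A probe counts as above background here when its detection p-value, its rank among the array's negative control probes, is under 0.01. That held for 35.6%, 34.6% and 36.8% of all probes on the control, hairpin 1 and hairpin 2 arrays, whose median signals were 153.6, 152.2 and 161.7. The PARP1 probe fell from a signal of 4365 in the control to 1312 with hairpin 1 and 766 with hairpin 2, or 28.2% and 12.9% of the control on the normalized scale. Its change had an adjusted p of 0.734 in limma. That was the smallest adjusted p of the 10692 genes tested, but PARP1 shared it with another gene of smaller unadjusted p. The fit therefore called 0 genes, PARP1 included, and 376 genes had an unadjusted limma p under 0.05. KRT8, KRT18 and EPCAM, which mark epithelium, were above background, and the other 6 of 9 epithelial and lung adenocarcinoma markers (KRT7, KRT19, CDH1, NKX2-1, NAPSA, SFTPB) were not. No marker of blood (0 of 3) or endothelium (0 of 3) was above background, and of 4 fibroblast markers COL1A1 was.

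Members lay close to the background. Their signals ran from 117 to 1231 on arrays that reached 32104, and 89 of 308 probes (28.9%) were above background on all 3 arrays, against 33.2% of all probes. A further 37 probes passed on 1 or 2 arrays, and 182 (59.1%) passed on none, against 61.4% of all probes. The share on all 3 arrays was 38.2% for box H/ACA (39 of 102), 24.2% for box C/D (43 of 178), 20.8% for Cajal body RNAs (5 of 24) and 2 of 4 for Y RNAs. The labelling kit is known to prime from poly(A) tails, which mature snoRNAs lack. Whether a probe read the mature RNA, a precursor or a tailed form cannot be told apart.

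**Figure D1:**
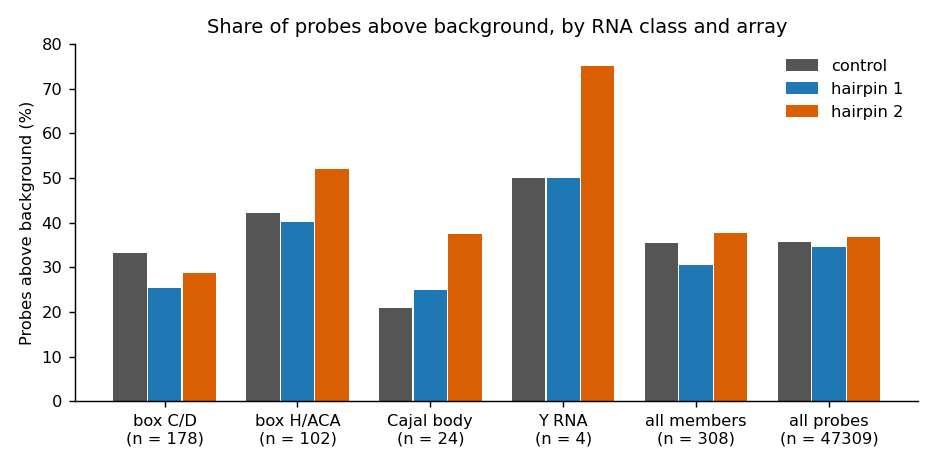
Percent of probes above background (detection p under 0.01) by RNA class on the control, hairpin 1 and hairpin 2 arrays, with all members and all probes beside them; each bar is 1 array and has no error. Box H/ACA probes ranged from 40.2% to 52.0%, box C/D probes from 25.3% to 33.1%, and all probes from 34.6% to 36.8%.

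The classes were not detected alike across arrays. Box C/D probes above background numbered 59, 45 and 51, whereas box H/ACA probes numbered 43, 41 and 53. Cajal body probes numbered 5, 6 and 9, and Y RNA probes 2, 2 and 3. The control array was thus the highest for box C/D and the hairpin 2 array for the other classes, which was also the array with the most probes above background overall. With 1 array in each condition, these counts have no replicate check.

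Of the box C/D snoRNAs that act in cleavage or acetylation of ribosomal RNA precursors (the U3, U14, U22 and U13 genes, with the box H/ACA genes of U17), 8 of 12 probes were above background on all 3 arrays and 11 on at least 1. In contrast, the box C/D genes of the imprinted cluster at DLK1 and MEG3 (SNORD112 to SNORD114), which are expressed from the maternal chromosome, had 1 of 25 probes above background, and that was SNORD113-7 on the control array only. In the imprinted cluster at SNRPN and SNHG14, which includes SNORD115 and SNORD116 and is known for its loss in Prader-Willi syndrome, 0 of 13 probes were above background. Their signals reached 178 and 171. Over all probes, 33.2% were above background on all 3 arrays and 61.4% on none. Copies of U3, of U14 and of U17 are nearly identical, so the 12 probes may in part read the same RNA.

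After normalization, 125 member genes were above background on at least 1 array and entered the fit, and for 88 this held on all 3. Those 88 are described first. Their median log2 ratio to the control was 0.04 with hairpin 1 and -0.01 with hairpin 2, beside 0.01 and 0.00 over the 9697 genes above background on all 3 arrays. With hairpin 1, 52 of the 88 were higher and 36 lower. With hairpin 2, 43 were higher and 45 lower. Both hairpin ratios share the single control array. By limma's test with Benjamini-Hochberg adjustment over all genes, 0 of 125 members passed, beside 0% of all genes (0 of 10692), and the smallest adjusted p of a member was 0.994. An unadjusted p under 0.05 was found for 6 of 125 members (RNY1, SCARNA18, SNORA6, SNORA64, SNORD65 and SNORD96B), or 4.80%, beside 3.52% of all genes.

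**Figure D2:**
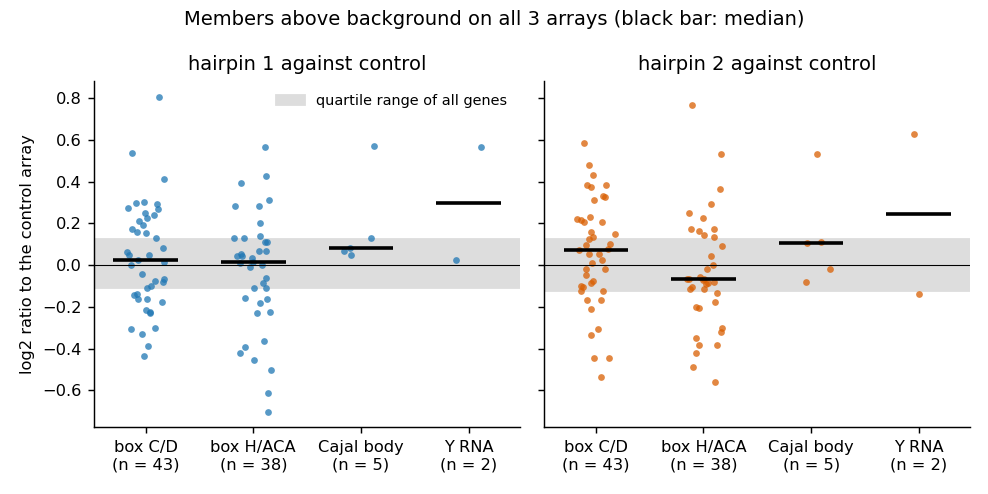
Log2 ratio to the control array for the 88 members above background on all 3 arrays, by class, with hairpin 1 on the left and hairpin 2 on the right; each point is 1 gene, black bars are class medians and the grey band runs from the lower to the upper quartile of all genes above background on all 3 arrays. Box H/ACA medians were 0.01 and -0.07 and box C/D medians 0.02 and 0.07, all inside the band.

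By class, the median log2 ratios with hairpin 1 and hairpin 2 were 0.02 and 0.07 for the 43 box C/D genes, 0.01 and -0.07 for the 38 box H/ACA genes, 0.08 and 0.11 for the 5 Cajal body genes and 0.30 and 0.24 for the 2 Y RNAs. Among box H/ACA genes, 21 of 38 were higher than the control with hairpin 1 and 13 of 38 with hairpin 2. Among box C/D genes, 24 and 26 of 43 were higher. The difference between the classes was not tested.

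Members were dimmer than most genes, and their ratios spread more. The mean log2 intensity of the 88 ran from 5.78 to 9.84 with a median of 7.05, against a median of 9.02 over all 9697 genes. The median absolute log2 difference between the hairpins was 0.16 for members and 0.12 for all genes, and limma's median standard error (SE) was 0.19 for members and 0.14 for all genes. The part of low intensity in the counts of members that follow was not tested.

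**Figure D3:**
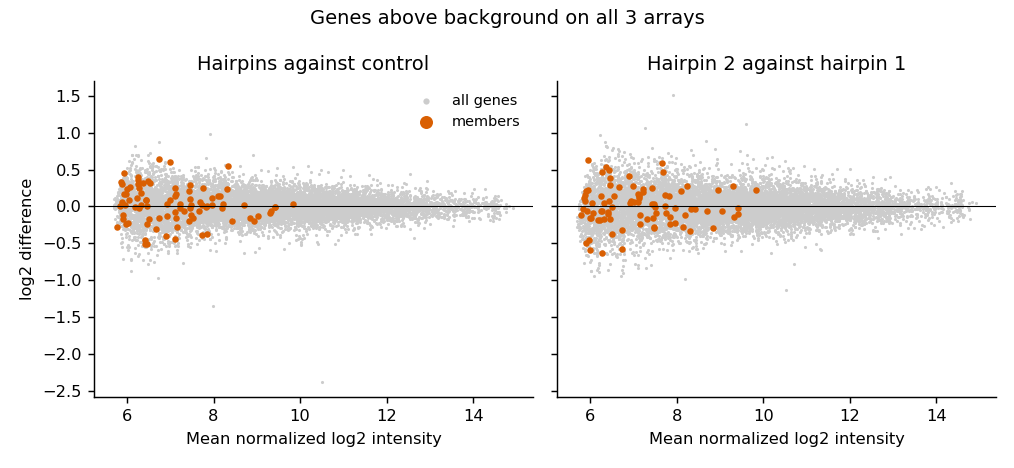
Log2 difference against mean normalized log2 intensity for all 9697 genes above background on all 3 arrays (grey) and the 88 members among them (orange), for the hairpins against the control (left) and hairpin 2 against hairpin 1 (right); each point is 1 gene. Members lie between 5.78 and 9.84 on the intensity axis, where the grey points also spread most, and PARP1 is the lowest point on the left at -2.39.

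Of the 88 members, 4 were at least 25% higher than the control with both hairpins (RNY1, SCARNA18, SNORA21 and SNORD96B), or 4.55%, where 1.78% of all genes were. Another 4 (SNORA14B, SNORA6, SNORA64 and SNORA65), again 4.55%, were at least 20% lower, where 1.26% of all genes were. The 4 lower members were all box H/ACA snoRNAs, and the higher members came 1 from each class. Without background correction, and with the deposited normalized values, 1 member (SCARNA18) was higher and 0 were lower, where 0.144% of all genes were higher under both settings and 0.196% and 0.186% were lower. With median scaling 4 were higher and 2 lower, where 2.77% and 0.732% of all genes were. With an offset of 50, 3 were higher and 2 lower, where 0.763% and 0.804% of all genes were. None of the 88 was 1.5-fold from the control with both hairpins in 1 direction, where 21 of the 9697 genes were. With median scaling SNORD96B was 1.5-fold higher with both, where 92 of all 10692 genes tested were 1.5-fold higher or lower.

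RNY1, which encodes the Y1 RNA, had signals of 219, 263 and 300.2. Both hairpin arrays were above the control. The normalized log2 values were 6.61, 7.17 and 7.24, a mean log2 difference of 0.60 (SE 0.19, limma adjusted p = 0.994) or 1.51-fold. Without background correction the mean was 0.29. RNY3, the Y3 gene, had signals of 282, 285 and 299, which were close on all 3 arrays, and log2 ratios of 0.03 and -0.14. RNY4 was not above background on any array, with signals of 146, 163 and 179. RNY5 passed on the hairpin 2 array only, with 164, 161 and 188.

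SCARNA18 had signals of 364, 479 and 537 and detection p-values of 0 on all 3 arrays. Its hairpin arrays lay 0.04 apart on the log2 scale and both lay above the control, with log2 ratios of 0.57 and 0.53. The mean log2 difference of 0.55 (SE 0.14) had the smallest unadjusted p of any member, 0.00425, and a limma adjusted p of 0.994. The other Cajal body RNAs above background on all 3 arrays were SCARNA10 (the U85 RNA, which has both kinds of box), SCARNA13, SCARNA16 and SCARNA23, and their log2 ratios ran from -0.08 to 0.13. SCARNA10, for example, had signals of 517, 531 and 588 and ratios of 0.05 and -0.02.

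Of the other 19 Cajal body RNAs, 14 were not above background on any array. SCARNA9, SCARNA14, SCARNA22 and SCARNA27 passed with hairpin 2 only, and SCARNA9L with hairpin 1 only. SCARNA22, the ACA11 RNA that lies in an intron of NSD2 and is known from multiple myeloma, had signals of 163, 172 and 216. Neither the control nor the hairpin 1 array was above background for it. With the control set at its lowest value among detected probes, the hairpin mean was 1.23-fold higher (1 of 2 hairpin arrays above background). This is no firm bound, because the mean includes the hairpin 1 array. The same figure was 1.10-fold for SCARNA14 and 1.03-fold for SCARNA9. Each of these RNAs passed the filter only through the hairpin 2 array, where it was high, so these figures carry no weight. SCARNA9L, which resembles SCARNA9, had signals of 169, 177 and 148, so it was low with hairpin 2, and no bound could be given for it or for SCARNA27. SCARNA2, a box C/D Cajal body RNA transcribed from a promoter of its own, had signals of 145, 126 and 137, and SCARNA3, over which a microRNA hairpin lies in part, had 131, 129.6 and 133. The remaining 12 of the 14 had signals between 132 and 177.

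SNORD96B was the highest ranked box C/D member, with signals of 202, 256 and 255. Its log2 ratios were 0.81 and 0.48 and the mean 0.64 (SE 0.23, limma adjusted p = 0.994), and the mean was 0.28 without background correction. SNORD96A, a related copy at another locus, had signals of 656, 621 and 687 and log2 ratios of -0.10 and -0.17. The ratios of the copies were of opposite sign, and cross-hybridization between them was not tested. SNORD25 (188, 200.3 and 228), SNORD83B (273, 304 and 347), SNORD139 (174, 183 and 204), SNORD49A (204, 216 and 249), SNORD84 (176, 182 and 205) and SNORD89 (184, 196 and 209) were also among the 10 highest members. Each was above the control with both hairpins, with smaller log2 ratios of 0.21 to 0.29, and each had an adjusted p of 0.994. Among the lowest box C/D members, SNORD65 had signals of 387, 337 and 358 and a mean log2 difference of -0.38 (SE 0.16). SNORD80 and SNORD100 followed with -0.19 (SE 0.14) and -0.27 (SE 0.31).

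Of the 10 lowest members, 7 were box H/ACA snoRNAs. SNORA14B had signals of 228, 200.2 and 213, log2 ratios of -0.46 and -0.56 and a mean of -0.51 (SE 0.24). SNORA65 had 226, 200.5 and 216, with ratios of -0.42 and -0.49. In both, the control array was the highest and the hairpin arrays did not reach it. SNORA6 (366, 309.6 and 350.4) and SNORA64 (288, 241 and 279) had mean log2 differences of -0.39 (SE 0.16) and -0.44 (SE 0.19). SNORA80A (232, 191 and 231), SNORA41 (264, 215 and 273) and SNORA7B (280, 257 and 275) had means of -0.51, -0.41 and -0.29. For SNORA80A the hairpin 2 signal as scanned was close to the control, and for SNORA41 it was above the control. They were lower with hairpin 2 after the arrays were brought to 1 distribution, the hairpin 2 array having the higher median signal. SNORA21 was the highest ranked box H/ACA member, with signals of 188, 207 and 223 and ratios of 0.43 and 0.36 (mean 0.40, SE 0.25). All had a limma adjusted p of 0.994.

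**Figure D4:**
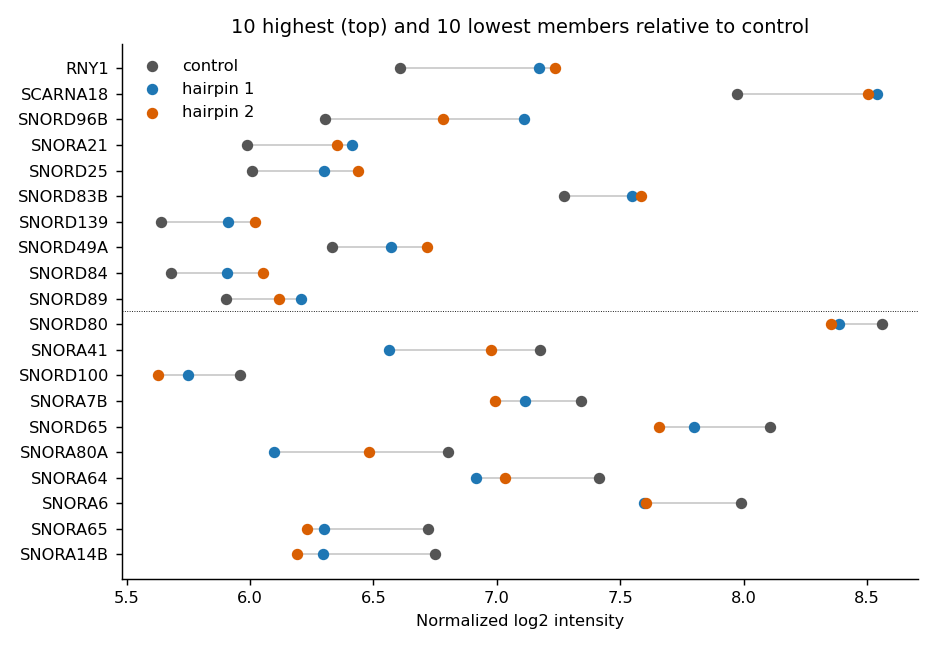
Normalized log2 intensity on the control, hairpin 1 and hairpin 2 arrays for the 10 highest members (above the dotted line) and the 10 lowest (under it) among the 88, ranked by the smaller of the hairpins' log2 ratios; each point is 1 array, with no error. RNY1 goes from 6.61 to 7.17 and 7.24, SNORA14B from 6.75 to 6.29 and 6.19.

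Over all 125 members that passed the filter, SNORA9 was 1.5-fold higher with both hairpins, or 0.800% of members beside 0.365% of all genes, and SNORD53 and SNORD74 were 1.5-fold lower, or 1.60% beside 0.608%. None of these 3 was above background on all 3 arrays, and the count was 0 without background correction. Each passed the filter through the arrays where it was high, so these shares carry no weight. SNORA9 had signals of 159, 178 and 194 and was above background with both hairpins, which gives a bound of at least 1.13-fold higher. SNORD53 (178, 156 and 163) and SNORD74 (182, 159 and 168) were above background in the control only, with bounds of at least 1.08-fold and 1.15-fold lower. SNORA32, with signals of 173, 187 and 208, was above background with both hairpins and at least 1.34-fold higher. It too passed the filter only through the arrays where it was high, so this figure carries no weight. The other members above background in the control only were SNORA58, SNORD35A, SNORD88B, SNORD94 and SNORD113-7. SNORD35A had signals of 186, 171 and 169, and the bounds for the other 4 ran from 1.04-fold to 1.08-fold lower. Every control-only member passed the filter through the array where it was high. The filter thus set the direction, and these lower bounds carry no weight. Such members numbered 7, whereas 14 were detected solely on the hairpin 2 array and 1 solely on the hairpin 1 array. The matching split over all probes was not computed.

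The hairpin arrays were also compared with each other. Of the 88 members above background on all 3 arrays, 2 were 1.5-fold higher with hairpin 2 than with hairpin 1 (2.27%, where 0.691% of all genes were), and 2 were lower (2.27%, where 0.825% were). SNORA25 (signals of 324, 281 and 406) and SNORA80E (175, 178 and 226) were the higher ones, and hairpin 2 was the highest of the 3 arrays for both. SNORA27 (193, 223 and 205) and SNORD15B (194, 196 and 186) were the lower ones, at 1.55-fold and 1.51-fold after background correction and normalization. Their signals as scanned lay much closer than that. The counts between hairpins were not recomputed without background correction. Another 6 members with wide measured gaps were not above background on the dimmer hairpin array, so their gaps are bounds. Of these, 4 (SCARNA22, SNORA1, SNORA29 and SCARNA9L) had entered only through the array where they were high. The filter set the direction of those 4 gaps, which carry no weight. SNORD56 had signals of 217, 173 and 243 and was at least 1.87-fold higher with hairpin 2, and SCARNA22 at least 1.42-fold and SNORA1 (155, 159 and 194) at least 1.05-fold higher. SNORD3C (174, 198 and 182) was at least 1.67-fold and SCARNA9L at least 1.18-fold higher with hairpin 1. SNORA29 (169, 149 and 185) allowed no bound. The difference between the hairpins has 1 array on each side and no test.

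Of the box H/ACA snoRNAs known to bind PARP1, SNORA73A and SNORA73B (the U17 genes) were above background on all 3 arrays. SNORA73A had signals of 270.01, 248 and 291 and log2 ratios of -0.23 and -0.09. SNORA73B had 2 probes, with signals of 249.99, 252 and 253 for 1 probe and 250.4, 277 and 283 for the other. Their log2 ratios were 0.03 and -0.26, and 0.28 and 0.05, so the probes of 1 gene differed by 0.25 with hairpin 1 and 0.31 with hairpin 2. SNORA37 (153, 139 and 156) and SNORA74A (140.3, 134 and 143) were not above background on any array. DDX21 had log2 ratios of -0.13 and 0.03 (limma adjusted p = 0.994). SNORD107 and SNORD58C also had 2 probes each, none above background.

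The U3 genes, whose RNA is needed for early cleavage of the ribosomal RNA precursor, had signals of 285, 315 and 314 for SNORD3A and 396, 486 and 468 for SNORD3D. Their log2 ratios were 0.25 and -0.05, and 0.41 and 0.07, so the hairpin 1 array was the high one after normalization. SNORD14C (305, 269 and 333) and SNORD14D (220.3, 197 and 235), genes of the U14 RNA, went the other way with hairpin 1, at -0.33 and -0.39, and lay at -0.08 and -0.10 with hairpin 2. SNORD13, the U13 gene, had 274, 295 and 335 and ratios of 0.19 and 0.22. Copies of U3 and of U14 are nearly identical, so their probes may read each other's RNA.

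Of the 305 members, 263 lay inside exactly 1 other RefSeq gene, 31 inside 2 or 3, and 11 inside none. The last were all 4 Y RNAs, SCARNA2, SNORA50C, SNORD13, SNORD32B, SNORD3A, SNORD3C and SNORD3D. The 263 lay in 142 hosts, of which 117 encode proteins and 23 are long noncoding RNAs. Of 179 members whose host was above background on all 3 arrays, 59 were so too, and 97 were above background on no array. Of all probes on the arrays, 33.2% were above background on all 3 and 61.4% on none, so the first count is near the share over all probes. TAF1D, which encodes a subunit of the RNA polymerase I initiation factor, held 8 members with 4 above background on all 3 arrays, and SNHG1 held 7 with 3. RPL13A, a ribosomal protein gene, held 4 with 3. GAS5, a long noncoding RNA with 8 members, had only SNORD80 above background on all 3 arrays, and no probe of GAS5 itself passed the filter.

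Many snoRNA hosts are known to begin with a run of pyrimidines (a 5′ terminal oligopyrimidine tract), through which the cell couples translation to growth. The start sites of 4 hosts discussed here are printed from RefSeq (GRCh38.p14), 5′ to 3′, 30 bases before the start in lower case and the first 10 transcribed bases in capitals.
RPL13A (chr19:49487578-49487617, + strand): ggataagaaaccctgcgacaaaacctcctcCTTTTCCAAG
SNHG1 (chr11:62855876-62855915, - strand): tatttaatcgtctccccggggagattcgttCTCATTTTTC
SNHG12 (chr1:28581864-28581903, - strand): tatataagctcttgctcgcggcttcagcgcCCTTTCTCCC
TAF1D (chr11:93741486-93741525, - strand): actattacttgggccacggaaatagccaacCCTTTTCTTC
Of these 10 bases, 7, 9, 10 and 10 were C or T. At least 8 of 10 were C or T in 26.4% of 148 start windows of 114 hosts, and in 9.95% of 35116 windows of all genes, on the transcribed strand alone. This is a property of the reference sequence and was not measured here.

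Over the 59 members and 40 hosts both above background on all 3 arrays, Pearson's r between member and host log2 ratios was -0.07 with hairpin 1 and -0.01 with hairpin 2, as a description across genes that share arrays and, in part, hosts. SNHG12, a long noncoding RNA, had log2 ratios of 0.59 and 0.49, while its 3 members lay between -0.09 and 0.13. The SNHG12 probe was dim, with a normalized log2 value of 6.35 in the control, and its ratios were not recomputed under other settings. SNORD99 was at 0.05 and 0.13, SNORA16A at -0.09 and 0.13, and SNORA61 at 0.05 and -0.06. In RPL3, a ribosomal protein gene, SNORD83B (0.28 and 0.31) and SNORD139 (0.27 and 0.38) lay above their host, which was at -0.03 and 0.01. In NOP56, which encodes a box C/D core protein, the host (0.13 and 0.31) and SNORD110 (0.17 and 0.33) had similar ratios, and SNORD57 was at -0.06 and 0.14. The members of SNHG1 were spread on both sides of it, with SNORD25 at 0.29 and 0.43, SNORD30 at 0.02 and 0.10, and SNORD31 at -0.43 and -0.17, and with the host at 0.00 and -0.09.

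**Figure D5:**
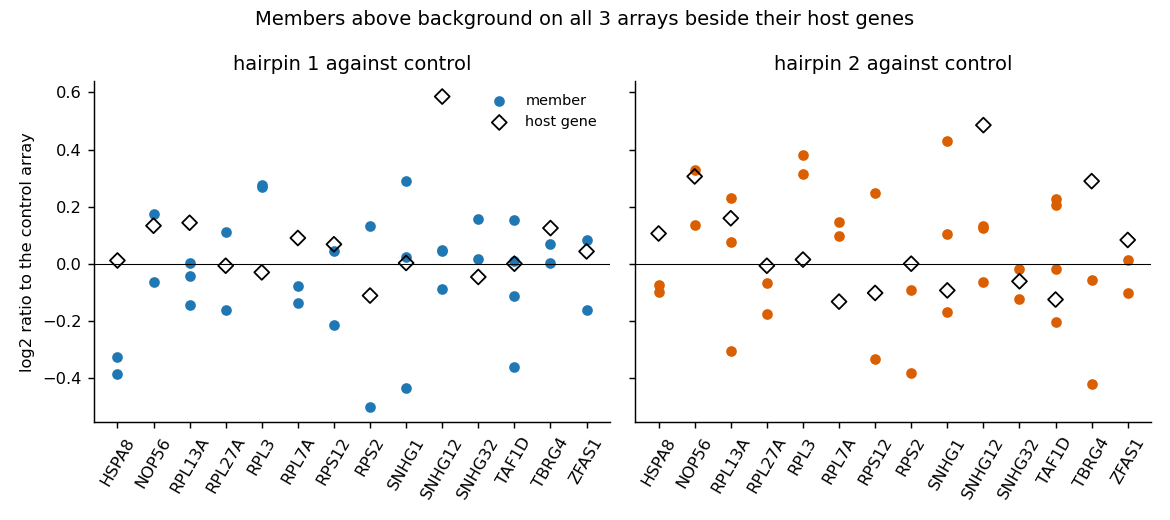
Log2 ratio to the control array of members above background on all 3 arrays (filled points) and of their host gene (open diamonds), for the 14 hosts with at least 2 such members and a measured host, with hairpin 1 on the left and hairpin 2 on the right; each point is 1 gene. SNHG12 lies at 0.59 and 0.49 above its 3 members, and the 2 members in RPL3 lie above their host.

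For members at the ends of the ranking, the hosts had values of their own. TMEM167A, the host of SCARNA18, had log2 ratios of -0.09 and -0.03. AMMECR1, the host of SNORD96B, had -0.20 and -0.13, against 0.81 and 0.48 for the snoRNA. RPL23 was at 0.05 and 0.14 beside SNORA21, RPL12 at -0.05 and -0.02 beside SNORA65, and RPS2 at -0.11 and 0.00 beside SNORA64. URB1, with a role in ribosome assembly, was at 0.03 and 0.45, whereas SNORA80A inside it was at -0.70 and -0.32. Over the 59 pairs the median absolute log2 ratio was 0.14 for members and 0.07 for hosts with hairpin 1, and 0.17 and 0.12 with hairpin 2.

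Genes for the proteins that bind, build or process these RNAs were taken from lists of known partners, and 0 genes of these lists passed limma's test. The box C/D core (FBL, the methyltransferase fibrillarin, with NOP56, NOP58 and SNU13) had median log2 ratios of 0.07 and 0.05. FBL lay at 0.01 and 0.07, NOP58 at -0.04 and -0.01, and SNU13 at 0.17 and 0.03. The box H/ACA core (DKC1, the pseudouridine synthase dyskerin, with GAR1, NHP2 and NOP10) had medians of 0.07 and 0.02. DKC1 lay at 0.14 and 0.10, GAR1 at 0.09 and 0.11, NHP2 at 0.04 and -0.11, and NOP10 at -0.10 and -0.06. These are values of the brightest probe. With a gene's probes averaged, the mean log2 change turned in sign, to -0.0913 for GAR1, 0.0636 for NHP2 and -0.0378 for SNU13. Over all 8 core proteins the largest ratio was that of NOP56 with hairpin 2.

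Of 12 assembly factors, 11 were above background on all 3 arrays, with medians of -0.16 and -0.06, and TAF9 had no named probe here. NUFIP1, a scaffold for box C/D assembly, had the lowest log2 ratios, -0.52 and -0.27 (mean -0.39, SE 0.21, limma adjusted p = 0.994). RUVBL1, an ATPase of the same pathway, was at -0.21 and -0.22. Cajal body proteins had medians of 0.10 and 0.01 over 5 of 6 genes (SMN2 was not above background), with COIL, the scaffold coilin, at 0.10 and 0.03 and WRAP53, which brings RNAs to the Cajal body, at -0.31 and -0.08. Genes of 3′ end processing had medians of 0.04 and -0.09 over 4 of 5 (DIS3 was not above background), with PARN, which trims adenosine tails, at 0.08 and -0.13. Y RNA partners had medians of -0.01 and 0.00 over 10 of 11 (IGF2BP1 was not above background). Ro60 (RO60) lay at 0.10 and -0.06, and La (SSB) at -0.12 and 0.22, beside RNY1 at 0.56 and 0.63.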

How the data were processed

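Total RNA was amplified and labelled with biotin (Illumina TotalPrep kit) and hybridized to HumanHT-12 V4 BeadChips, per the labels. The authors deposited a mean intensity for each probe, made with GenomeStudio per the submitters' processing notes (version and settings not given in the sources used here). The deposited p-value beside each intensity, a detection p per the file headers, moves in steps of 1 in 770. A second deposited table holds intensity values with equal distributions on all arrays (medians 152.6) and was used as an alternative.

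Background correction and quantile normalization used neqc of limma 3.58.1 in R 4.3.3 (offset 16, log2 scale). A probe entered if its detection p was under 0.01 on 1 or more arrays, and the brightest probe stood for a gene. Hairpin arrays (n = 2) were compared with the control (n = 1) by lmFit and eBayes (intensity trend), and p-values were adjusted by Benjamini-Hochberg over 10692 genes (threshold 0.05). There is 1 residual degree of freedom (the difference between the hairpins) and a median of 7.30 prior degrees of freedom, and the fit takes the lone control to vary as the hairpin arrays do. An SE is limma's moderated one. Precision is limited by having 3 arrays: at the median SE of 0.147 the 95% half-width is 0.336. The fit was tested on simulated data with known changes. Those changes were larger than any seen for a member, so the simulation does not show what the fit would find at the members' sizes.

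A fold is a bound ("at least") where a probe was not well above background on every array of a group: the brighter group's mean is set against the dim group's, in which each array counts as the probe's value or the lowest log2 value among detected probes, whichever is higher (5.63, 5.74 and 5.53). Where the brighter group's mean includes a hairpin array that was not above background, the fold is no firm bound. Genes were named from the platform annotation, and all 308 member gene IDs were found in a RefSeq table (GRCh38.p14). Hosts are RefSeq genes whose interval holds the member. Strand was not used, although the design asked for it, because the table gives none for members. Members inside several genes got no host.

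The members and lists were chosen with earlier results of these data known. Named were the 10 highest and 10 lowest members above background on all 3 arrays, ranked by the smaller log2 ratio of the hairpins, members 1.5-fold from the control with both hairpins, the 4 furthest apart each way between hairpins, all Cajal body and Y RNAs, members with several probes, the PARP1-binding snoRNAs with DDX21 and PARP1, core proteins, up to 3 of each other partner list, and hosts of named members. Other members named (SNORA25, SNORA32, SNORA80E, the genes of U3, U13 and U14, SNORD96A, those above background in the control only, and members of SNHG1, SNHG12 and NOP56) were chosen after their values were seen. Copies of nearly identical genes, such as those of U3, U14 and U17, cannot be told apart for certain. Alternatives were other background corrections, scalings, filters, probe summaries, variance priors and folds, and leaving out each hairpin.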

Additional observations from a re-analysis of the deposited data

How the results depend on the processing

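Limma called 0 members under all 10 alternatives. Members at an unadjusted limma p under 0.05 were fewest with median scaling, 3 of 125 beside 228 of all 10692 genes. They were most with no trend in the variance prior, 17 of 125 beside 517 of 10692. With no filter they were 16 of 305 beside 882 of 20044. Over all genes it called 3 with median scaling and 1 when probes of a gene were averaged, and 0 otherwise. The 3 members at 1.5-fold with both hairpins became 0 with no background correction, with an offset of 50, with the deposited normalized values, with detection on all 3 arrays, and at 2-fold, and 18 at 25% higher or 20% lower. With hairpin 1 or hairpin 2 left out, 11 members in each case were 1.5-fold from the control with the other, since both hairpins no longer had to pass, and limma then has no residual degree of freedom and gives no test. The counts of 18 and 11 include members that were not above background on every array. The share of all genes under the same rules was not computed, so these counts carry no weight. Among the 88 members above background on all 3 arrays, the 4 that were 25% higher became 1 with no background correction and with the deposited values, and the 4 that were 20% lower became 0 under both and 2 with an offset of 50 and with median scaling (counts recomputed by a choice made after seeing the data). The shares of all genes under these settings are given with the members above. The median log2 ratio of members with hairpin 1, 0.00904, was 0.00515 with no background correction, 0.00451 with median scaling, 0.00510 with the deposited values, -0.0118 with no filter, 0.0388 with detection on all 3 arrays and 0.0161 at a detection p of 0.05. With hairpin 2 it was 0.0113, and became 0.00600, 0.145, 0.00681, -0.00149, -0.00987 and 0.0173 under the same settings, 0.00916 with an offset of 50, 0.00674 with cyclic loess and -0.00149 with the mean of probes. Median scaling moved the median of all genes with hairpin 2 to 0.136, so the 0.145 is near that shift. Member probes above background on all 3 arrays numbered 119 at a detection p of 0.05, against 89.

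Of 867 values for 88 named genes, 844 kept their direction and their side of the threshold, 21 changed sign and 2 (both PARP1) passed the test. With median scaling the mean log2 change became 0.0509 for MBD2, 0.0425 for NOP58, 0.0178 for RNF149, 0.0245 for RNY3, 0.0605 for SCARNA16, 0.0124 for SNHG1, 0.0164 for SNHG15, 0.0172 for TAF1D and 0.00187 for TMEM167A. SCARNA16 was at 0.000169 with no background correction. NOP58 was at 8.09e-05 and RPL21 at -0.00655 with loess, and RPL21 at -1.64e-05 with the deposited values. When a gene's probes were averaged, GAR1 was at -0.0913, NHP2 at 0.0636, POLA1 at 0.189, RNF149 at 0.0542, RPL3 at 0.0344, SNU13 at -0.0378, TAF1D at 0.0857 and TMEM167A at 0.114. The cause was not tested. The mean change of SCARNA18 ran from 0.37 to 0.63, of RNY1 from 0.28 to 0.67, of SNORD96B from 0.28 to 0.70, of SNORA21 from 0.14 to 0.44 and of SNORA14B from -0.51 to -0.21, lowest in size without background correction or with the deposited values. No paired analysis was possible because the control is a single array.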
